A study of Sorghum bicolor with 4 samples.

Results

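The middle internode of the stem of the sweet sorghum variety SSV84 (Sorghum bicolor), from plants grown in an open field, was compared between booting and physiological maturity, the earliest and the latest of the 3 stages sampled. The rows followed are those of the authors' table that reached at least 1 FPKM (sequenced fragments, corrected for the length of the transcript and for library size) in either of these 2 stages. They number 18183 of 34458 rows, or 52.8%. By the labels, booting had 2 libraries and maturity 1, all from total RNA of the same tissue and variety, with no treatment or transgene named. The milky stage between them had 1 library and is given as the value on the way. Series of 3 values below are FPKM in the order booting, milky, maturity. The table holds 1 value per stage and names no single library, so each value is the authors' value for that stage. No spread between plants is known, and no difference below was tested.

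At booting the panicle is still enclosed in the sheath of the uppermost leaf, and at physiological maturity the grain has reached its final dry weight. Over this span the internodes of sweet sorghum are known to finish elongating, to thicken and lignify secondary walls, and to store sucrose in stem parenchyma. In whole internode samples such as these, fewer cells of a type and less RNA per cell cannot be told apart. The table pairs no gene ID with a gene name, and no ID matched the RefSeq gene table available here. Genes are therefore described by ID or position and by their values, with no function, and the internode label could not be checked against marker genes.

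A row was said to rise or fall when log2(FPKM + 1) at maturity differed from booting by at least 1. By this rule 1499 rows rose (8.24% of the 18183) and 1146 fell (6.30%), together 14.5%. A larger change, of at least 2 on the log2 scale, was found in 343 rows upward (1.89%) and 224 downward (1.23%), together 3.12%, and one of at least 4 in 40 upward and 22 downward. Most rows moved little. The median difference was 0.04, the middle 50% of rows lay between -0.34 and 0.42, and 67.4% stayed within 1.5-fold of FPKM + 1. Close to the threshold, 453 rows had a difference of 1 to 1.1 in size and 536 one of 0.9 to 1. At the filter, 255 rows had 1 to 1.1 FPKM in their higher stage and entered, and 290 had 0.9 to 1 FPKM and did not.

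Rows that rose and rows that fell came from different levels. The rule itself favours a low booting value among rises and a high one among falls. The median row that rose went from 1.82 through 3.97 to 8.90 FPKM. Among rows that fell the median went from 17.7 through 8.40 to 4.82 FPKM. Rows in neither set had a median of 12.3 FPKM at booting and 12.9 at maturity. The median size of the change was alike, 1.41 on the log2 scale for rises and 1.42 for falls.

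**Figure D1:**
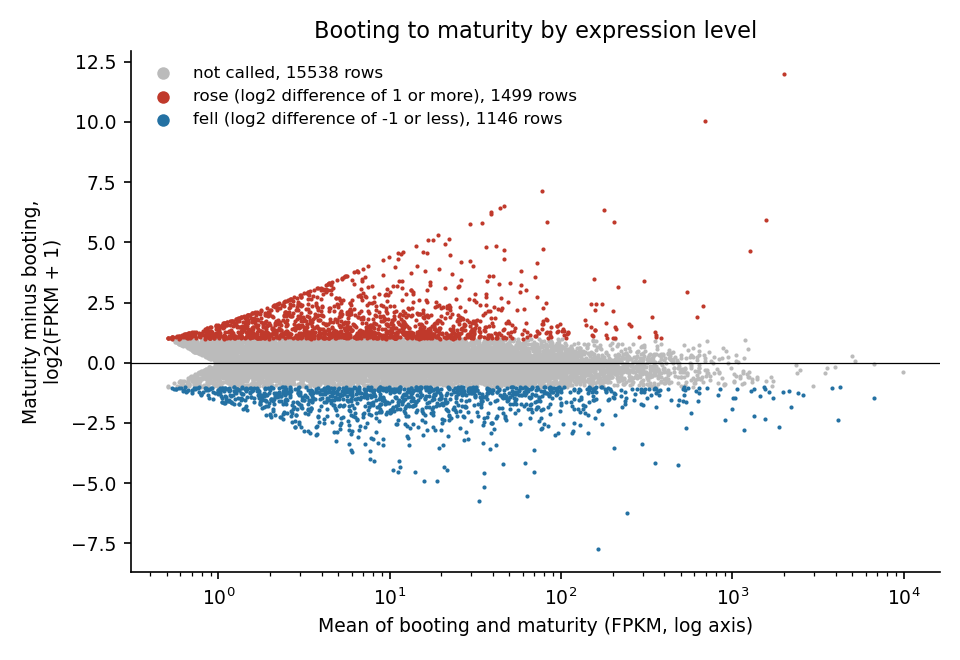
Difference in log2(FPKM + 1), maturity minus booting, against the mean of both stages in FPKM on a log axis, for the 18183 rows, each point 1 row. The 1499 rows that rose lie mostly at low means and the 1146 that fell reach further into high means. The slanted outer edges are set by the added 1, since a row at 0 in one stage cannot differ by more than its value in the other allows.

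Among single-ID rows above 0 in both stages, the largest rise was that of Sobic.009G116700 (chromosome 9, 45915614 to 45916682). Its values were 0.106, 42.3 and 155 FPKM, and it differed by 7.14 on the log2 scale. Next came Sobic.001G425600 (chromosome 1, 70540574 to 70541384), with 0.0480, 2.41 and 93.1 FPKM and a difference of 6.49. With a pseudocount of 5 these differences were 4.97 and 4.28, and a gene on chromosome 1 from 69932393 to 69935701, with 3.38, 117 and 351 FPKM, ranked first at 5.41. With a pseudocount of 0.1 they were 9.56 and 9.30 and ranked first and second. On the log2(FPKM + 1) scale these 2 rises were timed unlike each other. Sobic.009G116700 had most of its change behind it at the milky stage, and Sobic.001G425600 had most of it still to come. The timing of Sobic.001G425600 depends on the added 1, since its booting value was near 0. No fall was larger than that of Sobic.005G046700 (4444213 to 4445054 on chromosome 5), which went from 327 FPKM through 5.49 to 0.549 (-7.72). Sobic.008G162600 (chromosome 8, 59632341 to 59636299) went from 478 FPKM through 98.2 to 5.31 (-6.25). With a pseudocount of 5 the falls were -5.90 and -5.55 and kept these ranks, and with 0.1 they were -8.97 and -6.47, ranked first and 6th. Both were thus abundant at booting and low at maturity, with the milky value between.

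The 30 largest rises, of any ID class and above 0 in both stages, ran from 4.24 to 10.06 on the log2 scale, and the 30 largest falls from 3.40 to 7.72 in size. The ranking itself favours a low start among rises and a low end among falls, so the levels that follow are partly built in. The median of the 30 rises went from 0.309 through 11.1 to 74.6 FPKM, and that of the 30 falls from 54.1 through 5.58 to 1.23 FPKM. The falls spread widely, from 11.9 to 919 FPKM at booting, and the highest of them still had 47.6 FPKM at maturity. Each set touched all 10 chromosomes, with 10 of the 30 rises and 8 of the 30 falls on chromosome 1. That chromosome held 3302 of the 18183 rows, with 302 of all 1499 rises and 211 of all 1146 falls. Loci spanning up to 2000 bp made up 15 of the 30 rises and 8 of the 30 falls. Among all single-ID rows such loci were 13.5%, with 308 of 1321 rises and 338 of 998 falls.

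**Figure D2:**
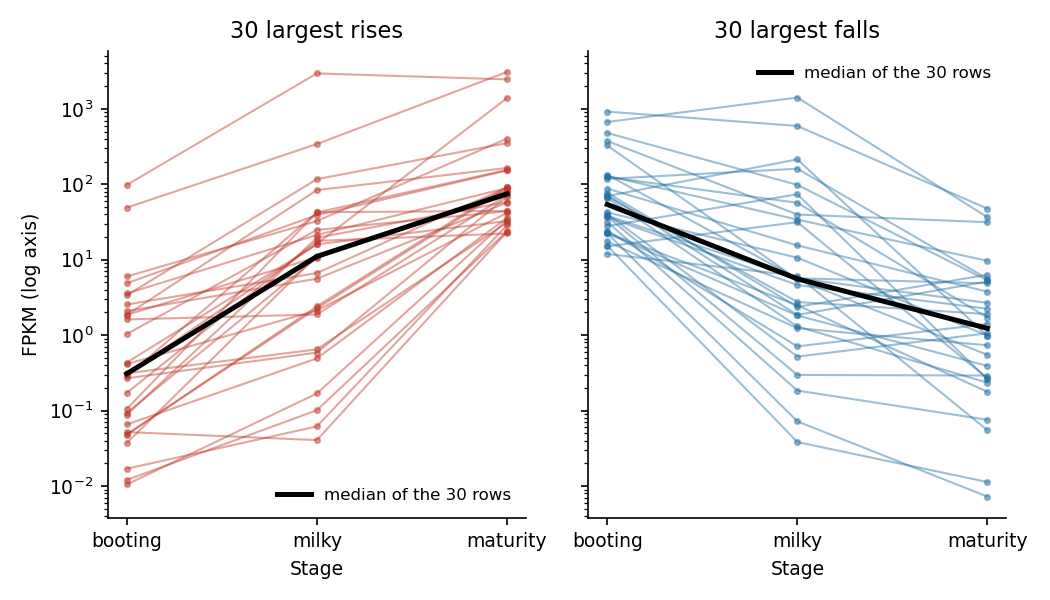
FPKM on a log axis at booting, the milky stage and maturity for the 30 largest rises (left) and the 30 largest falls (right). Each thin line is 1 row and the thick line is the median of the 30 rows, which climbs from 0.309 to 74.6 FPKM on the left and drops from 54.1 to 1.23 FPKM on the right.

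Within these sets several time courses stood side by side. The locus at 70714984 to 70715693 on chromosome 3 had 98.1, 2946 and 2454 FPKM, so that its rise was complete by the milky stage. Another on chromosome 1, from 67060894 to 67062680, went from 1.86 through 83.7 to 164 FPKM. On the log2(FPKM + 1) scale, though not in FPKM itself, most of that rise lay before the milky stage. Late rises were as large. At chromosome 4 from 60812267 to 60813930 the values were 0.268, 0.587 and 68.8 FPKM, and at chromosome 1 from 8034151 to 8036927 they were 1.62, 1.88 and 71.5 FPKM. Both rows were hardly above their booting value at the milky stage.

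Falls were as varied. An early one, on chromosome 3 from 1796488 to 1798901, had 22.4, 0.0721 and 0.00726 FPKM. A late one, on chromosome 4 from 57051382 to 57055340, kept most of its signal until the milky stage, with 919, 592 and 47.6 FPKM. In 5 of the 30 largest falls the milky value lay above the booting value. The most abundant of these, on chromosome 1 from 74445944 to 74451079, had 669, 1411 and 36.6 FPKM. For such rows the booting-to-maturity difference leaves out a peak between the 2 stages.

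To place the milky stage for every row that changed, its log2(FPKM + 1) was written as a position between the stages, 0 at the booting value and 1 at the maturity value. Rows that rose had a median position of 0.397, and rows that fell one of 0.697. A position of 0.5 or more was reached by 613 of the 1499 rises (40.9%) and by 753 of the 1146 falls (65.7%). The median position of falls was thus the higher. For rises it was 0.354 under 10 FPKM, 0.462 at 10 to 100 FPKM and 0.553 at 100 FPKM or more, and for falls 0.681, 0.683 and 0.768. At 2 or more on the log2 scale the medians were 0.318 and 0.637. The gap between the medians, -0.300 for rises minus falls, kept its sign under every alternative run and ranged from -0.375 to -0.155. The gap was narrowest when the stages were rescaled to the same summed FPKM. It also varied with the pseudocount, at -0.168 with 0.1 and -0.375, the widest, with 5. Position and call use the same booting and maturity values, and the milky stage is 1 library by the labels.

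Most changes ran in 1 direction. The milky value lay between the others in 1147 rises (76.5%) and 729 falls (63.6%). Among rises, 354 (23.6%) had a position from 0 to under 0.25 and 199 (13.3%) one of 0.75 to 1. Among falls, the counts were 90 (7.85%) and 234 (20.4%). A milky value beyond the maturity value was seen in 139 rises (9.27%) and 286 falls (25%). For these falls the milky stage was the lowest of the 3. A milky value beyond the booting value, against the direction of the whole span, was seen in 213 rises (14.2%) and 131 falls (11.4%).

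**Figure D3:**
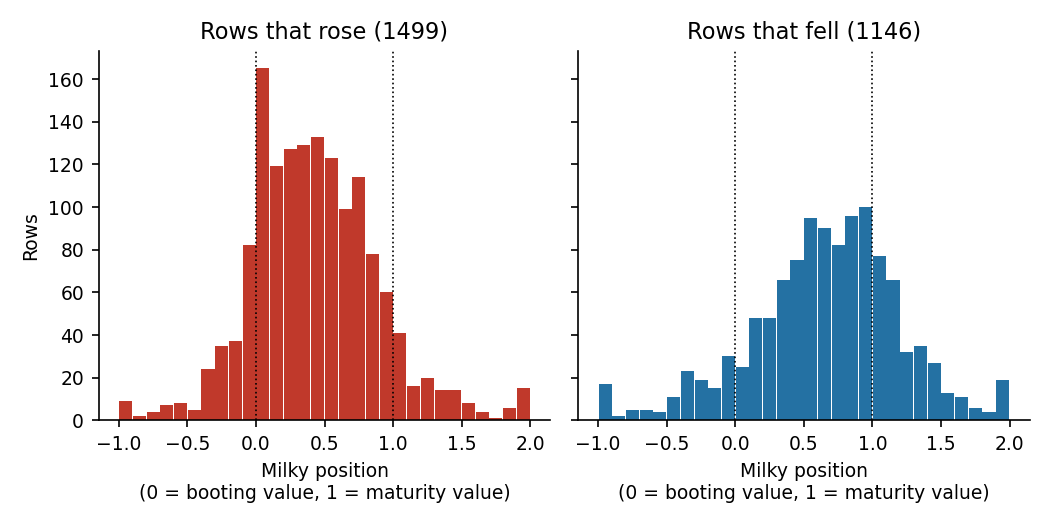
Number of rows by the position of the milky value between booting (0) and maturity (1) on the log2(FPKM + 1) scale, in steps of 0.1, with positions beyond -1 or 2 placed in the end bars. Rows that rose (left) have a median of 0.397 and rows that fell (right) one of 0.697.

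Falls were most frequent among abundant rows, and rises among rows of low level. Of 8288 rows with a mean of both stages under 10 FPKM, 975 rose (11.8%) and 537 fell (6.48%). Of 1324 rows whose mean reached 100 FPKM, 47 rose (3.55%) and 147 fell (11.1%). The share that rose minus the share that fell was 5.28 percentage points under 10 FPKM, and went to 0.352 with quantile normalization, 0.977 with a pseudocount of 5 and 9.96 with equal summed FPKM. At 100 FPKM or more it was -7.55, and went to -1.21 with quantile normalization and -2.34 with equal summed FPKM. Of the 65 rows whose mean reached 1000 FPKM, 3 rose and 23 fell (35.4%), and 54 of the 65 were lower at maturity than at booting. Across these 65 rows the median went from 1978 through 1170 to 1084 FPKM. As deposited, the share that rose minus the share that fell was -30.8 percentage points among these 65 rows. After quantile normalization, which gives the stages the same distribution of values by construction, it was -1.54 percentage points. With the stages rescaled to the same summed FPKM it was -15.4 percentage points. At a log2 difference of at least 2 it was -3.08 among these 65 rows. At that threshold it was -0.831 at 100 FPKM or more and 1.32 under 10 FPKM.

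The 23 abundant rows that fell lay on 9 chromosomes, and in 20 of them the position of the milky value was 0.5 or more. Their median went from 2524 through 1218 to 965 FPKM. The largest loss in FPKM was on chromosome 4 from 534523 to 536909, with 9917, 4348 and 3579 FPKM, a log2 difference of -1.47. One on chromosome 7, from 5884243 to 5885271, went from 6942 through 1762 to 1350 FPKM (-2.36). One on chromosome 5, from 4770079 to 4771218, went from 3222 through 934 to 503 FPKM (-2.68). In these rows the larger part of the drop lay before the milky stage. The deepest fall among the 23 was on chromosome 4 from 2908347 to 2912284, with 2051, 201 and 296 FPKM (-2.79), and its lowest value was the milky one.

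The 3 abundant rows that rose were of different kinds. The first, at 12370478 to 12374638 on chromosome 1, stood at 0, 4107 and 4007 FPKM. Being listed at 0 in its first stage, it has no fold, and none is given. A row with merged IDs on chromosome 3 from 7023231 to 7058676 stood at 49.1, 341 and 3077 FPKM, a log2 difference of 5.94. The last is the row on chromosome 3 from 70714984 described above. Its neighbour from 70717672 to 70722503, a row with merged IDs and 6827, 11705 and 6558 FPKM, differed by -0.06 over the span. A value at 0 in this table can be a failed estimate, and a merged row covers more than 1 annotated gene.

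Summed over rows, the falls outweighed the rises although they were fewer. The 1146 rows that fell held 151066, 75500 and 52642 FPKM. Their share of all FPKM went from 19.0% to 7.71%. The 1499 rows that rose held 11626, 31762 and 51464 FPKM, a share that went from 1.47% to 7.54%. Over all rows the sum went from 793091 through 688481 to 682654 FPKM. FPKM is scaled to mapped fragments, so these sums measure how the signal was spread over rows and not the amount of RNA in the stem. The 10 largest losses held 15.7% of all FPKM lost and the 10 largest gains 16.9% of all FPKM gained. Past these, losses were the more concentrated, with 50% of the loss in 145 rows and 50% of the gain in 338. The largest gain, 4007 of the 91554 FPKM gained, was that of the abundant row listed at 0 at booting. That 0 can be a failed estimate, and the sums of rows that rose include this row.

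**Figure D4:**
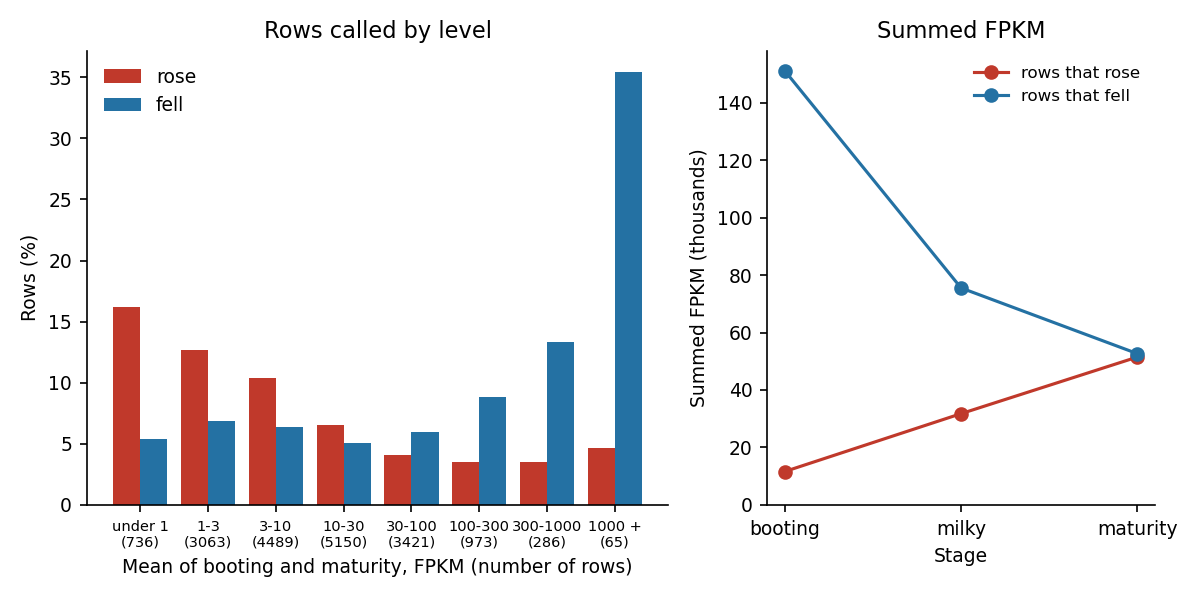
Left, percent of rows that rose or fell in each class of mean FPKM, with the number of rows in parentheses. Right, summed FPKM at each stage of the rows that rose and of those that fell. Falls reach 35.4% of rows at 1000 FPKM or more, and at maturity both sets hold nearly the same sum, 51464 and 52642 FPKM.

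The size of the excess of rises over falls varied with the scaling and with the weight of low rows. Rises made up 56.7% of the changed rows as deposited. With each stage rescaled to the same summed FPKM, 2021 rows rose and 832 fell, so that rises made up 70.8%, and the median difference of all rows moved from 0.04 to 0.23. With the median of ratios 1358 rose and 1265 fell (51.8% rises), and with quantile normalization 1268 rose and 1248 fell (50.4%). With a pseudocount of 5 in place of 1, which gives low rows less weight, 565 rose and 602 fell. Over rows whose mean reached 5 FPKM, 789 rose and 783 fell.

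Rows listed at or near 0 in one stage were unevenly divided. Rows under 0.1 FPKM at booting and at 10 FPKM or more at maturity numbered 27, and rows with the reverse pattern 7. In all, 90 rows were listed at 0 at booting and 11 at 0 at maturity, and each of them passed the rule of size because the other stage held at least 1 FPKM. Of the 90, 42 were also at 0 at the milky stage and 42 more were above 0 but under 1 FPKM there, so only 6 had reached 1 FPKM. Their median at maturity was 3.14 FPKM, and 12 of them reached 10 FPKM. Rows with no gene ID made up 24 of the 90, and 933 of all 18183 rows.

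Among rows at 0 at booting, the shortest locus of the highest 12, on chromosome 6 from 49034299 to 49034401, was at 0 at the milky stage too and had 38.5 FPKM at maturity. On chromosome 2 from 4938648 to 4939979 a row stood at 0, 0 and 19.7 FPKM. Its neighbour from 4934949 to 4935969 went from 0.0657 through 0.492 to 35.8 FPKM (5.11), so that adjacent loci came up together and late. In the opposite direction, a row on chromosome 1 from 62342118 to 62343997 went from 20.8 through 0.145 to a listed 0. Among the 11 rows at 0 at maturity, 3 had 10 FPKM or more at booting.

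Short loci changed more often than long ones. The span of a locus, its end minus its start, includes introns. Of 2164 single-ID rows spanning up to 2000 bp, 308 rose (14.2%) and 338 fell (15.6%). Of 13908 that span more, 1013 rose (7.28%) and 660 fell (4.75%). The short rows were 13.5% of single-ID rows and 27.9% of those that changed. Within rows of 10 to 30 FPKM, loci up to 1000 bp rose in 18.4% and fell in 26.4% of 87 rows, whereas loci of 4 to 8 kb rose in 4.78% and fell in 2.87% of 1883 rows. Within rows of 30 to 100 FPKM the share that fell was 28.1% of 57 rows up to 1000 bp and 3.8% of 1288 rows of 4 to 8 kb. Rises among rows under 3 FPKM differed less, at 16.9% of 189 rows up to 1000 bp and 9.71% of 1009 rows of 4 to 8 kb. The share changed among short loci, 17.8 percentage points above that of longer loci, turned to -0.972 when rows under 1 FPKM were let in. A row under 1 FPKM in both stages cannot pass the rule of size, so letting such rows in added only unchanged rows. At a given FPKM a short transcript rests on fewer fragments, and the part of counting error was not tested.

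**Figure D5:**
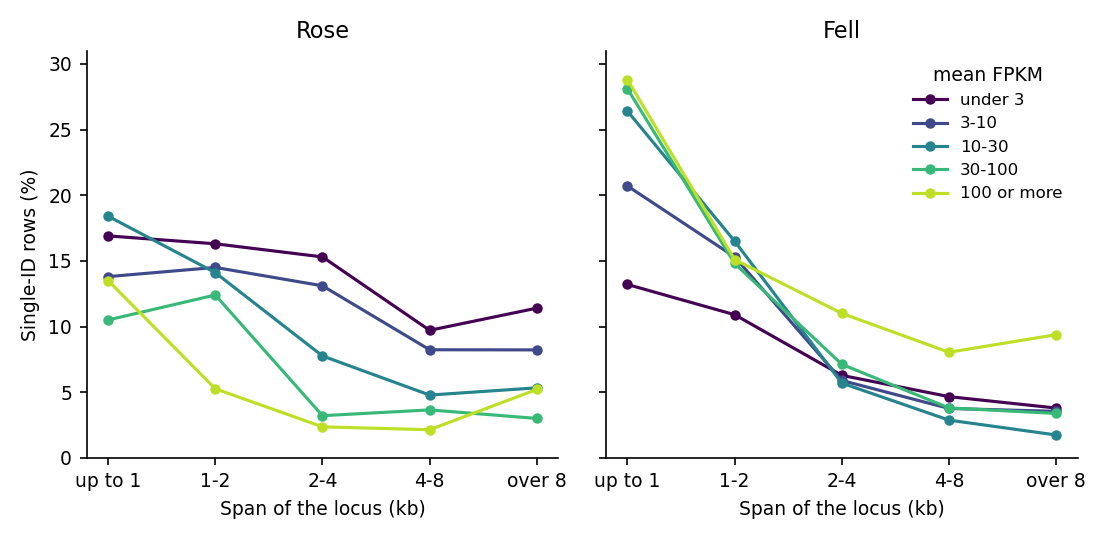
Percent of single-ID rows that rose (left) or fell (right) by the span of the locus in kb, each line a class of mean FPKM over booting and maturity. In every class, loci up to 1 kb fell more often than loci over 8 kb, for example 26.4% against 1.74% of rows at 10 to 30 FPKM.

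Rows of different ID classes were set side by side at like levels. Of 933 rows with no gene ID, 104 rose (11.1%) and 83 fell (8.90%), and of 1178 rows with merged IDs, 74 rose (6.28%) and 65 fell (5.52%). Within rows of 10 to 30 FPKM, 12.2% of 148 rows with no ID fell, against 4.69% of 4409 rows with a single ID ending in 00. Gene models whose number was inserted between older ones, 971 single-ID rows, rose in 8.86% and fell in 9.17% of cases. At 30 FPKM or more, 25 of 144 such rows fell (17.4%), against 7.11% of 4121 other single-ID rows. These classes were not matched for the span of the locus.

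By chromosome, rises ranged from 7.19% of 2157 rows on chromosome 4 to 10.9% of 994 rows on chromosome 8. Falls ranged from 4.49% of 1493 rows on chromosome 10 to 7.28% of 2636 rows on chromosome 3. On chromosome 3 both directions were nearly equal, with 195 rises and 192 falls. In the outer 5% at either chromosome end 7.32% of 4357 rows rose and 6.06% fell. Among the 304 rows 40% to 50% of the way in, 7.24% rose and 6.58% fell. Unplaced scaffolds differed, with 14 of 37 rows falling (37.8%) and 4 rising. Of the 14, 8 came from 2 scaffolds with 9 rows, and the other 23 scaffolds gave 6 falls among 28 rows (21.4%). The 14 had a median of 17.1, 4.82 and 5.64 FPKM.

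Neighbouring rows tended to share a direction. Taking 1 row per locus, 16946 in all, the next row along the chromosome rose after 12.4% of rows that had risen, against 7.93% after rows within the threshold. It fell after 10.4% of rows that had fallen, against 5.97%. The pattern was seen at each distance, though for rises it was weakest at gaps of 10 to 100 kb, at 11.3% against 9%. With a gap of 100 kb or more, 14 of 96 rises were followed by another rise (14.6%), against 7.73% of 893 rows within the threshold, and with a gap under 1 kb 18 of 166 were (10.8%), against 5.84% of 2262. Within 1 kb, a rise followed a fall in 2 of 116 cases (1.72%), and a fall followed a rise in 7 of 166 (4.22%), against 4.6% after rows within the threshold. Over all gaps a rise followed a fall in 7.27% of cases, against 7.93%, and a fall followed a rise in 6.08%, against 5.97%. Of 75 neighbours within 20 kb of the 30 largest rises, counted for each rise, 12 rose and 3 fell. Of 59 neighbours of the 30 largest falls, 4 fell and 5 rose.

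Runs of 3 or more neighbouring loci that all rose numbered 22, and runs that all fell 15. They were taken along the 16946 loci with a row that passed the filter, so other loci in between were skipped. Over all pairs of such loci, the next row rose in 8.25% and fell in 6.26%. How many runs these shares alone would give was not tested. A run of 4 rises on chromosome 1 from 15934073 to 16396864 had a median of 0.00314, 0.0172 and 6.36 FPKM, and so was under 1 FPKM before maturity. Its highest row at booting had 0.0155 FPKM, so its rows passed the filter only through their maturity values. A run of 4 falls on chromosome 1 from 31205563 to 31385784 had a median of 12.1, 2.82 and 2.78 FPKM. It had reached its low level by the milky stage. Near Sobic.001G425600, the adjoining locus from 70539438 to 70540272 rose with it, from 2.55 through 6.66 to 90.9 FPKM (4.69). The loci on either side of this pair stayed within the threshold, at 31.2, 17.4 and 20.1 FPKM on one side and 17.7, 14.1 and 17.2 on the other.

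A pair of stretches on chromosome 3 was chosen around runs of falls, and over all 18183 rows 6.30% fell. The first is the longest run of falls, so its bounds were set by the falls themselves. From 28848740 to 28861779 all 8 expressed rows, from 5 loci, fell, with a median of 21.6, 11.4 and 6.22 FPKM. The second joins a run of 4 falls, which starts at 38371937, to a locus that ends at 38365472. From 38333551 to 38374369, 10 of 13 expressed rows fell and 1 rose. The 13 rows came from 7 loci, and the largest held 7 of them and 5 of the falls. Over the 13 rows the medians were 5.98, 2.83 and 2.05 FPKM. The row that rose there went from 2.64 through 2.75 to 9.81 FPKM. Adjacent on chromosome 1, a locus from 11059217 to 11059684 fell from 31.8 through 0.184 to 0.0756 FPKM (-4.93), and an unannotated one that starts at 11059710 fell from 37.5 through 0.297 to 0.292 FPKM (-4.90). Both were under 1 FPKM from the milky stage on.

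Of 1046 loci with several expressed rows, 28 had 2 or more rows changed in 1 direction only and 9 had rows changed in both directions. So 9 of the 37 loci with at least 2 changed rows held both directions. In 220 loci a single row changed, and in 789 none did. The 1046 loci held 2247 of the 18183 rows, and over all rows 8.24% rose and 6.30% fell. How many loci of each kind these shares alone would give was not tested. At chromosome 6 from 57699326 to 57714803, one row rose from 3.57 through 11.5 to 9.99 FPKM (1.27) while the other went from 50.1 through 106 to 4.57 FPKM (-3.20). At chromosome 1 from 60184220 to 60197455, a row with a gene ID fell from 17.5 through 3.10 to 5.25 FPKM (-1.56), and one with no ID rose from 1.24 through 2.23 to 10.7 FPKM (2.38). The division of fragments among overlapping rows was not stated by any source used here.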

How the data were processed

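Total RNA of the middle internode was measured by RNA-seq, after extraction with modified Trizol and stranded library preparation, per the labels' protocols. Tools named in the submitters' processing notes are HISAT2 2.0.5, Bowtie2 2.2.9, Cuffdiff and cutadapt 1.8.1. The genome build, and the way libraries entered a stage value, were not stated in any source used here, so coordinates are those of the table. Its values are FPKM, per the file headers, 1 per stage made by the authors. The authors' sequencing depth is not stated. Values of low rows repeated a common step in 67 of 1287 rows at booting and 99 of 1643 at maturity, too few to recover fragments.

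Differences of log2(FPKM + 1) were computed over rows with at least 1 FPKM at booting or maturity, and a row was called at a difference of 1 or more in size. With 1 value per stage no test could be made. Members, lists and rules were chosen with earlier results of these data known. The rule for named genes needed gene descriptions: 0 of 34129 IDs matched the RefSeq table of Sorghum_bicolor_NCBIv3, as written or as locus tags starting SORBI_3, and 0 of 69 gene lists found a row. Motifs could not be searched. In place of that rule, the 2 largest rises and the 2 largest falls among single-ID rows above 0 in both stages are named by ID. Rows given by position were chosen after their values were seen. Alternatives were pseudocounts, scalings, filters and a stricter threshold. The rule was tested on simulated data. Python 3.11.15, numpy 2.4.6, pandas 2.3.3 and matplotlib 3.10.9 were used.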

Additional observations from a re-analysis of the deposited data

Results flagged for a closer look

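A signal in data outside the comparison was seen at the milky stage, where 3 rows had 10 FPKM or more while staying under 1 FPKM at booting and at maturity. Each was listed at 0 in both of those stages, and a value at 0 in this table can be a failed estimate. The smallest of them, on chromosome 1 from 1316717 to 1319836, had 12.4 FPKM at the milky stage. The other two share a locus on chromosome 10 from 52122843 to 52228422, with 1879 and 320 FPKM. In all, 322 rows reached 1 FPKM only at the milky stage and do not enter the comparison.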

How the results depend on the processing

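Against 2645 changed rows (1499 rose, 1146 fell), 1167 (565 and 602) were found with a pseudocount of 5, 567 (343 and 224) past a log2 difference of 2, and 1572 (789 and 783) over rows whose mean reached 5 FPKM. Under the other settings run, each of these counts stayed within 1.5 times. Low values carry more weight under a pseudocount of 0.1, with 2201 rises and 1557 falls. The median log2 difference of all rows reversed to -0.0261 with the median of ratios and -0.0117 with quantile normalization. The summed FPKM of the rows used, which changed by -110762 as deposited, was higher by 42.6 after quantile normalization, which makes the stage sums equal by construction. The share of changed rows among short single-ID loci, 17.8 percentage points above that of longer loci, turned to -0.972 with no filter. Rows under 1 FPKM in both stages cannot pass the rule of size, so that setting added only unchanged rows. Under every other setting the gap between short and longer loci stayed between 5.56 and 24.1. The same summed FPKM, rows above 0 in both stages, unshared loci and a span over 2000 bp were added after seeing the data. No paired analysis was possible because the table has 1 column per stage, and for the same reason no library could be left out. Depth per library is not known, so no interval is given.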
